A study of Mus musculus with 6 samples.

Results

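The Mmp3-high inflammatory fibroblasts were 1693 of the 63647 cell barcodes recorded by single-cell RNA sequencing in lower abdominal muscle (LAM) of 6 mice. They were selected by their own counts. In the deposited table the barcodes stand in 180 runs of columns that share a sample prefix, and what that order means is not given in the sources used here. Runs 43 to 48 hold 15972 barcodes, of which 15700 had at least 1000 unique molecular identifiers (UMIs, counted transcripts) and at most 10% of them from mitochondrial genes. A barcode of these was a member when it held at least 3 UMIs of Mmp3 and 2 of C4b, and a UMI of no more than 1 of the epidermal-type genes Dmkn, Sbsn and Krtdap. The remaining 14007 barcodes of the same runs are called the others.

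All 6 animals were male mice of the FVB/N strain aged 9 to 10 weeks, 3 wild type (WT) and 3 Aromhum. Aromhum mice carry the human aromatase gene CYP19A1, which makes the enzyme that turns androgens into estrogens, under its native promoters, and the males develop scrotal hernias. The LAM of 1 WT mouse and 1 Aromhum littermate was digested on each of 3 dates, but the labels do not tie the mouse numbers to the dates. The dissociation removed muscle fibers by size and lysed red blood cells, so the tissue is seen through its mononucleated cells. CYP19A1 RNA was at 0 in the others of all 3 WT mice and at 8.74, 7.56 and 10.6 CPM in those of Aromhum 1, 2 and 3 (edgeR adjusted p = 0.013). CPM is the usual scaling of a gene's UMIs by all UMIs of the same cells of a mouse. The libraries held 64958237 to 72876541 UMIs in WT and 92652109 to 111826460 in Aromhum, so that every Aromhum library was the deeper. Across libraries 471 barcode sequences occurred in more than 1 mouse, and 28 members carried such a sequence. A doublet caller marked 1.80% of all barcodes within the limits and 20 members, but marked 0 barcodes in WT 2 and WT 3, where it did not work.

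Fibroblasts build and remodel the extracellular matrix of muscle. Under inflammatory signals such as interleukin 1 they can also secrete proteases, complement components, acute phase proteins and chemokines that act on matrix and on leukocytes. Mmp3 encodes stromelysin 1, a secreted metalloprotease that cleaves proteoglycans, fibronectin and other matrix proteins and can activate other matrix metalloproteases. C4b encodes complement component 4, which forms part of the convertase that cleaves C3. Of the genes named as markers beside these, Cpxm1 encodes a secreted carboxypeptidase-like protein, Il33 an alarmin cytokine of the interleukin 1 family, and Cyp7b1 the hydroxylase that inactivates hydroxylated cholesterols and some steroids. On the mouse genome GRCm38, Mmp3 lies at chr9:7445822-7455975, C4b at chr17:34728380-34743882, Cpxm1 at chr2:130390775-130397574, Il33 at chr19:29925114-29960718 and Cyp7b1 at chr3:18071950-18243338. Mouse C4b has a near-identical neighbor copy, so its counts may include or miss reads of that copy.

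The promoters of Mmp3, which defined the cells, and of the serum amyloid A genes Saa3 and Saa1, 2 acute phase genes described below, are printed to show the sequence in front of the genes on which the results turn. Each is the 250 bases before the start of the gene in RefSeq, build GRCm38.p6, 5′ to 3′ on the strand of the gene. Capitals mark matches, on either strand, to the AP-1 motif TGANTCA or the C/EBP motif TTGCNNAA, 2 transcription factor families that act downstream of cytokine signals.
Mmp3, chr9:7445572-7445821, plus strand: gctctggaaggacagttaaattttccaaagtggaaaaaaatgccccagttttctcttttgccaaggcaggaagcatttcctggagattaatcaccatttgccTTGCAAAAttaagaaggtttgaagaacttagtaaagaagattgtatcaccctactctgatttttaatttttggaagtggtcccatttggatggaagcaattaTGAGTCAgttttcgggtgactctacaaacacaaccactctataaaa
Saa3, chr7:46715677-46715926, minus strand: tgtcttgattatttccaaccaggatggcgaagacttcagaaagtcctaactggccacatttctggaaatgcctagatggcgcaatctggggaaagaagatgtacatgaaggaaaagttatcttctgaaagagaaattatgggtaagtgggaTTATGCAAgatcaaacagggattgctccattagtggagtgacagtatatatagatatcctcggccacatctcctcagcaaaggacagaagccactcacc
Saa1, chr7:46742981-46743230, minus strand: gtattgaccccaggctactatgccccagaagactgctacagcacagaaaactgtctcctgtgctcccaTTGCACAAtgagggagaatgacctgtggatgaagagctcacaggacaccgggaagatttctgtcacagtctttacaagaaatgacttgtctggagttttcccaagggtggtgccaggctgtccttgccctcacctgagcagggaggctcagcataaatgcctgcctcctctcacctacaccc
The Mmp3 promoter held an AP-1 match from 46 to 40 bases and a C/EBP match from 148 to 141 bases before the start. The Saa3 match to C/EBP lay 99 to 92 bases and the Saa1 match 182 to 175 bases before it. Of 32851 RefSeq promoters of this length, 6.75% held an AP-1 match, 9.56% a C/EBP match and 0.98% a match to the NF-kB motif, which these 3 promoters lacked. Among the acute phase list, 12 of 16 genes had a promoter entry, and 7 of them held a C/EBP match (Cp, Lcn2, Orm2, Ptx3, Saa1, Saa2 and Saa3), 3 an AP-1 match and 0 an NF-kB match. Of the 5 marker genes, Cpxm1, Il33 and Mmp3 had an entry. These matches describe letters and were not tested as binding sites.

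The members came mostly from Aromhum mice. There were 90, 13 and 7 in WT 1, 2 and 3 and 508, 988 and 87 in Aromhum 1, 2 and 3, so that 93.5% of all members were from Aromhum and 88.4% from Aromhum 1 and 2 alone. Of the barcodes of the runs, members made up 3.29% (95% Wilson interval 2.69 to 4.03%), 0.689% and 0.607% in the WT mice and 16.4%, 21.9% and 3.73% (3.03 to 4.58%) in the Aromhum mice. The lowest Aromhum mouse stood just above the highest WT mouse, and their intervals, which cover counting error only, overlapped. The means were 1.53% ± 1.53 (SD, n = 3) in WT and 14.0% ± 9.34 (SD, n = 3) in Aromhum, a difference of 12.5 percentage points (exact permutation test, two-sided p = 0.1, the smallest that 3 against 3 mice allow). The difference was 3.80 points with barcodes thinned to 1000 UMIs, where Aromhum 3 stood at 0.0858%, and 21.3 points with no limit on Dmkn, Sbsn and Krtdap.

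**Figure D1:**
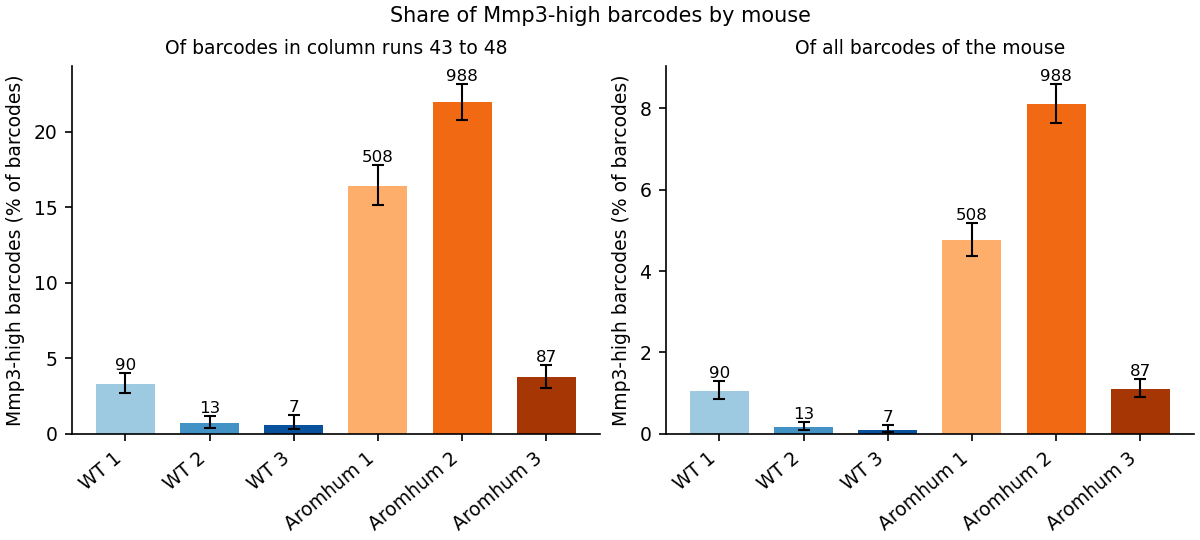
Share of Mmp3-high fibroblasts among the barcodes of runs 43 to 48 in each of the 6 mice, in percent (bars), with 95% Wilson intervals (lines) and the number of members above each bar. Aromhum 1 and 2 stand at 16.4 and 21.9%, while Aromhum 3 at 3.73% is close to WT 1 at 3.29%.

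As a share of all barcodes within the limits, members made up 1.06%, 0.176% and 0.103% in WT and 4.75%, 8.10% and 1.10% in Aromhum. The means were 0.445% ± 0.530 and 4.65% ± 3.50 (SD, n = 3 each; exact permutation test, two-sided p = 0.1). The order of the lowest Aromhum and the highest WT mouse depended on depth and limits. With barcodes thinned to 5000 UMIs, the share of the runs was 1.55% in Aromhum 3 and 1.75% in WT 1 (exact permutation p = 0.2), whereas Aromhum 1 and 2 stood at 14.8 and 22.2%. Members held a median of 10619.5 UMIs in WT 1, 11848 in WT 2 and 15912 in WT 3, and 11848, 9453 and 15107 in Aromhum 1, 2 and 3. In every mouse this median was above that of the others, which ranged from 7944 in Aromhum 2 to 12086 in Aromhum 3. The rule sets a fixed number of UMIs, and the part of depth in the shares beyond the thinned values was not tested.

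Cells of this kind were not found in these runs alone. Among the barcodes of all other runs, 352 (0.933%) met the same count limits, of which 152 were among the 1011 barcodes of the 26th block of 6 runs, where runs 43 to 48 are the 8th, and 100 among the 4638 of the 10th (2.16%), in which 8 markers of Esr1-high fibroblasts (Esr1 is estrogen receptor alpha) summed to 7510 to 19320 CPM. They are not members and enter no value below.

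The values that chose the members are given as a description. The median member held 6, 11 and 8 UMIs of Mmp3 in WT 1, 2 and 3 and 15, 17 and 7 in Aromhum 1, 2 and 3, with highest values of 314 and 303 in Aromhum 1 and 2. Per 10000 UMIs of the cell, the median Mmp3 level was 7.08, 9.82 and 4.73 in WT and 13.5, 19.4 and 5.56 in Aromhum, and the median C4b level was 8.16, 2.41 and 8.32 in WT and 17.7, 18.8 and 4.96 in Aromhum. On both scales Aromhum 1 and 2 stood above the other 4 mice, and Aromhum 3 lay within the WT range. Just inside the limits were 261 members with 3 or 4 UMIs of Mmp3 and 74 with 2 of C4b, and just outside were 171 barcodes with 2 of Mmp3 and 143 with 1 of C4b. A further 1048 barcodes met both limits but held UMIs of 2 or more of Dmkn, Sbsn and Krtdap. They stand among the others, and 390 and 620 of them were from Aromhum 1 and 2.

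**Figure D2:**
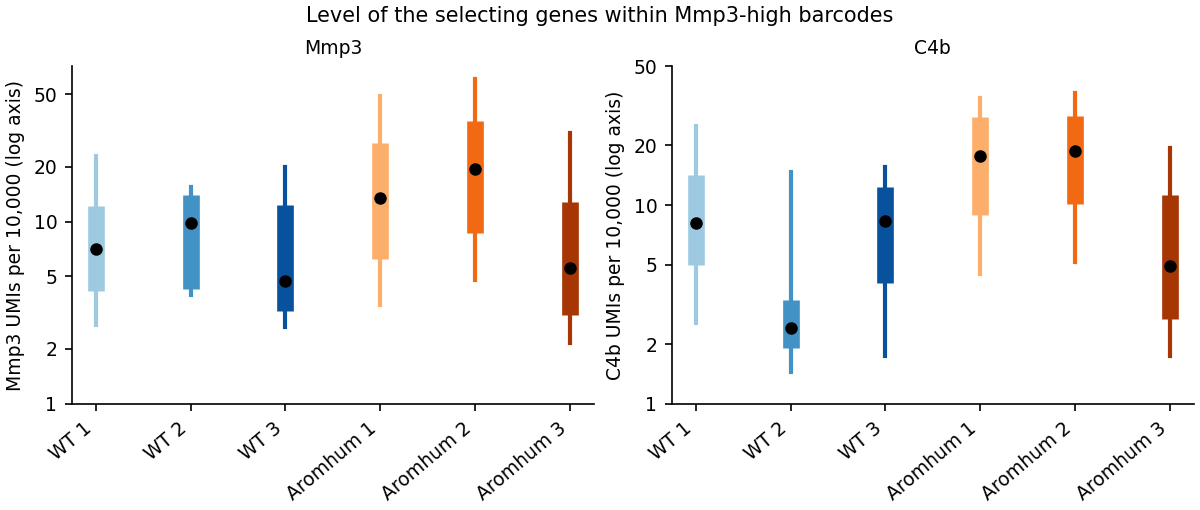
UMIs of Mmp3 and of C4b per 10000 UMIs of a cell among the members of each mouse, on a log axis. Dots are medians, thick lines the 25th to 75th percentile and thin lines the 10th to 90th. Aromhum 1 and 2 have the highest medians of both genes, at 13.5 and 19.4 for Mmp3 and 17.7 and 18.8 for C4b.

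Markers placed the members among fibroblasts. The summed level of 8 fibroblast markers was 42760 to 59880 CPM in WT members and 57130 to 65620 CPM in Aromhum members, and 1474 to 2562 CPM in the endothelial barcodes. These were barcodes of other runs with both endothelial genes Pecam1 and Cdh5 and no UMI of Pdgfra, the receptor that marks muscle fibroblasts, so that their fibroblast sum was in part fixed by that choice and they give no background for Pdgfra. A UMI of Pdgfra was found in 78.8% of members and 72.9% of the others. The leukocyte gene Ptprc had a UMI in 9 of the 1693 members (0.532%), and macrophage markers summed to between 0 and 53.4 CPM. Endothelial markers summed to 29.8 to 76.8 CPM. The 4 muscle stem cell markers, of which Pax7 was at 0 in all members, summed to 35.1, 0 and 0 CPM in WT members and 8.23 to 16.4 CPM in Aromhum members, most of it from Asb5. The 5 T cell markers summed to 13.8, 0 and 89.4 CPM in WT and 11.7 to 24.5 CPM in Aromhum, most of it from Cd3e, with 9 UMIs in WT 3. The 5 markers of glia summed to 3.19, 18.1 and 149 CPM in WT members and 2.25 to 5.85 CPM in Aromhum members. The part of RNA from other cells in the results was not tested. Of the 5 genes that name the cells, Mmp3 and C4b chose the members and were bound to be high in them. The other 3, Cpxm1, Il33 and Cyp7b1, summed to 846, 157 and 517 CPM in WT members and 2492, 3157 and 477 CPM in Aromhum members. In the others they summed to 346, 182 and 224 CPM in WT and 975, 1074 and 275 CPM in Aromhum. On this sum the members stood above the others of their mouse except in WT 2.

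Members and others of the same mouse were set side by side over genes, as the log2 ratio of summed CPM plus 1. Because the counts of these cells chose the members, the ratios carry no test, and WT 3 with 7 members was left out of them. Of 7251 genes at 10 CPM or more, 470 (6.48%) were higher in members in all 5 mice and 2187 (30.2%) lower in all 5, with a median ratio over genes of -0.17. The others are not alike in the 6 mice. Barcodes that held 2 or more of Dmkn, Sbsn and Krtdap, called epidermal-type here, made up 446 of 2644, 169 of 1874 and 111 of 1146 others in WT 1, 2 and 3 and 1038 of 2584, 1586 of 3514 and 388 of 2245 in Aromhum 1, 2 and 3. Ratios and list counts were therefore also computed without them, a comparison chosen after seeing the data, in which 6.14% of 7282 genes were higher in members in all 5 mice and 30.0% lower. Of the markers that the rule did not use, Cpxm1 stood at 557, 133 and 417 CPM in the members of WT 1, 2 and 3 and at 1823, 2518 and 299 CPM in those of Aromhum. Its median log2 ratio to the others was 1.46, with a range of 0.32 to 1.94, and it was higher in members of each mouse. Cyp7b1 stood at 2.13, 6.03 and 9.94 CPM in WT members and 82.8, 136 and 7.31 CPM in Aromhum members, with a median ratio of 1.58. Its counts were high in Aromhum 1 and 2 and near 0 in the other 4 mice, where the members held 1 to 10 UMIs in all. Il33 stood at 286, 18.1 and 89.4 CPM in WT and 586, 502 and 171 CPM in Aromhum, and its ratio was above 0 in 4 of 5 mice with a median of 0.42. Without the epidermal-type barcodes the median Il33 ratio was 1.35.

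**Figure D3:**
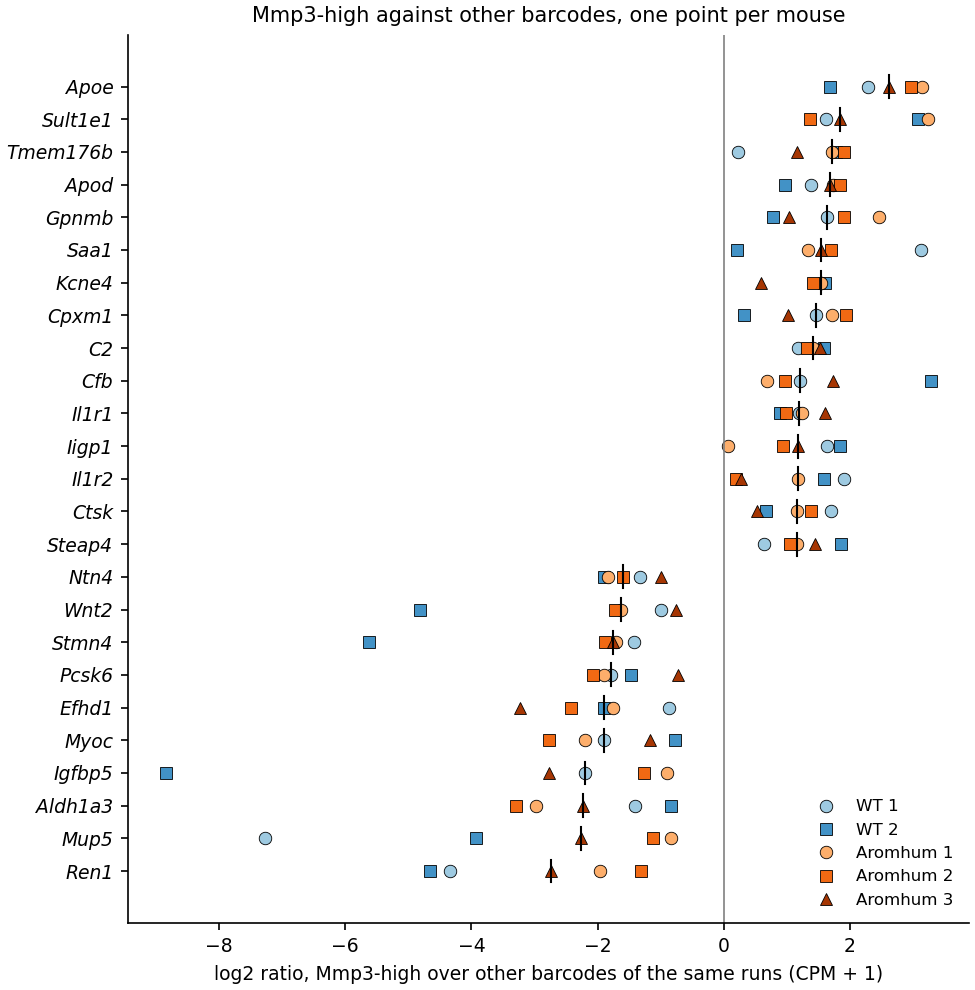
Log2 ratio of summed CPM plus 1 in Mmp3-high fibroblasts over that in the others of the same runs for 25 genes, with a point for each of 5 mice and a bar at the median. The genes were chosen among those at 50 CPM or more with the same sign in all 5 mice. Of the plotted genes that the rule did not use, Apoe has the highest median, at 2.62, and Ren1 the lowest, at -2.74.

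Apoe led the genes at 50 CPM or more that were higher in all 5 mice and that the rule did not use. It encodes the lipid carrier apolipoprotein E. Apoe stood at 1485, 356 and 358 CPM in WT members and 1233, 1526 and 347 CPM in Aromhum members. In the others it stood at 304, 109.7 and 143 CPM in WT and 138, 195 and 55.6 CPM in Aromhum. In WT 2, 24 of the 59 Apoe UMIs of members were in 1 member, without which the level was 227 CPM. In WT 3 these values were 24 of 36 and 143 CPM. The median log2 ratio of Apoe was 2.62, and each of the 5 mice had at least 1.69. Apod, another apolipoprotein, had 1.69, and the estrogen sulfotransferase gene Sult1e1, whose product inactivates estrogens by sulfation, had 1.85. Sult1e1 stood at 590.3, 181 and 368 CPM in WT members and 168, 42.1 and 60.7 CPM in Aromhum members, with every WT mouse above every Aromhum mouse. Hsd11b1, which regenerates active glucocorticoid, was also higher in members of all 5 mice, at a median of 0.52. With Cyp7b1, whose level in WT 2 members was 1 UMI, these were 3 of 6 genes of the oxysterol and steroid enzyme list, beside 6.48% of all genes, and 3 of 6 were also higher without the epidermal-type barcodes. The other leading genes were Tmem176b at 1.71, Gpnmb at 1.64, Kcne4 at 1.53 and Steap4, a metalloreductase, at 1.15. Ctsk, the collagen-cleaving cathepsin K, had 1.17.

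C4b, which the rule used, was bound to be higher in members. Of the 15 complement genes beside it, 7 (46.7%) were higher in members of all 5 mice (C2, Cfb, C7, C3, Serping1, C1ra and C1s1), beside 6.48% of all genes, and the membrane inhibitors Cd55 and Cd59a were lower. Their median ratio was 0.47. Without the epidermal-type barcodes 7 were higher and 1 lower, at a median of 0.63. C2, the partner of C4 in the C3 convertase, stood at 113, 84.4 and 89.4 CPM in WT members and 169, 122 and 62.9 CPM in Aromhum members, with a median ratio of 1.42 and a range of 1.17 to 1.59. The genotypes overlapped for C2. C3, the component on which the pathways converge, stood at 1694, 2182 and 1639 CPM in WT and 4202, 3652 and 1729.7 CPM in Aromhum, and was higher in members at a median of 0.90. Factor B (Cfb), of the alternative pathway, had a median of 1.20.

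Among acute phase genes, 4 of 9 were higher in members of all 5 mice and 0 lower, with a list median of 0.86, beside 6.48% of all genes higher and 30.2% lower. Without the epidermal-type barcodes these counts were also 4 and 0, at a median of 1.17. The 4 genes against all others were Saa1 at 1.54 (2.91 without those barcodes), the lipopolysaccharide-binding protein gene Lbp at 1.11, the pentraxin Ptx3 at 0.86 and the protease inhibitor Serpina3n at 0.54. The count of Saa1 in WT members was small, with 1 UMI in WT 2, on which its place above the others of that mouse rests, and 12 of 15 UMIs of WT 1 in 1 member. Saa1 and Saa2, like the Serpina3 genes, have near-identical copies between which reads may be split. Of 14 chemokine genes, 5 were higher in all 5 mice (Cxcl12, Ccl8, Cxcl2, Cxcl1 and Cxcl16) and Cxcl9 and Ccl11 were lower, at a median of 0.43, and without the epidermal-type barcodes 4 were higher and 2 lower, at 0.27. Cxcl1, which draws neutrophils, stood at 5137, 10607 and 6468 CPM in WT members and 7022, 4900.5 and 4802 CPM in Aromhum members. Of 12 cytokine genes, 5 were higher in all 5 mice, namely Lif, Tnfsf13b, Csf1, Il6 and Ptgs2, the last a prostaglandin synthase, and 2 were lower. Without those barcodes 6 of 11 were higher and 1 lower. Il6 stood at 448, 518 and 477 CPM in WT members and 551, 397 and 458 CPM in Aromhum members, and the groups overlapped.

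Receptors for interleukin 1 were higher in members. Il1r1, which transmits the signal, had a median ratio of 1.20 and the decoy receptor gene Il1r2 1.17, and 6 of 16 cytokine receptor genes were higher and 2 lower in all 5 mice, beside 6.48% and 30.2% of all genes. Without the epidermal-type barcodes 6 were higher and 4 lower. Il1rl1, whose product is the receptor of interleukin 33, stood at 37.2, 18.1 and 9.94 CPM in WT members and 176, 254 and 87 CPM in Aromhum members, with every Aromhum mouse above the WT mice and a median ratio of 1.08. Of 22 NF-kB pathway genes 8 were higher in all 5 mice and 4 lower, namely Irf1, Relb, Bcl3 and Nfkbia. Without the epidermal-type barcodes 7 were higher and 4 lower, and the list median was 0.033 in place of 0.18. Of 15 interferon-stimulated genes 6 were higher and 0 lower, against 4 and 0 of 16 without those barcodes. Beside Mmp3, which the rule used, 3 of 19 matrix proteases were higher (Ctsk, Mmp2 and Adamts2) and 0 lower, with a median of 0.10, and 2 were higher without the epidermal-type barcodes. The collagenase gene Mmp13 and the stromelysin 2 gene Mmp10 were at or below 2.55 CPM in members of every mouse.

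The place of progenitor fibroblast genes depended on the epidermal-type barcodes. Against all others, 0 of 13 such genes were higher and 8 lower in all 5 mice, beside 30.2% of all genes, among them Pi16 at -0.53, Cd34 at -0.54 and Dpp4 at -0.79, with a list median of -0.79. Without those barcodes 3 of 12 were higher and 1 lower, at a median of 0.09. Of 30 matrix genes 4 were higher and 6 lower, beside 6.48% and 30.2% of all genes. Without those barcodes 3 were higher and 8 lower. The lowest named ratios were of Ren1 (renin) at -2.74, Mup5 at -2.27, the retinoic acid enzyme gene Aldh1a3 at -2.24, the insulin-like growth factor binding protein gene Igfbp5 at -2.20 and Myoc at -1.90. Some of these ratios also differed without the epidermal-type barcodes. Igfbp5 was then at -0.66 and Wnt2 at -0.26, where all others gave Wnt2 -1.62, and 8 of the 10 lowest genes were still lower in all 5 mice. Of the higher genes, Tmem176b and Iigp1 were then higher in 4 of 5 mice, with lowest ratios of -0.015 and -0.48.

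Detection per cell was compared at equal depth, with every barcode thinned to 1000 UMIs. A UMI of Cpxm1 was found in 60.9% of members, 19.5% of the others and 0.242% of endothelial barcodes. For Lbp the shares were 80.6%, 45.5% and 8.62%, and for Ptx3 66.6%, 38.4% and 1.35%. Il33 was detected in 32.0%, 15.1% and 0.70%, and Cyp7b1 in 8.62%, 0.921% and 0.179%. The endothelial share is given for comparison, and how much of it is free RNA, mixed droplets or expression by endothelial cells was not tested. These shares pool the mice, and 88.4% of members were from Aromhum 1 and 2. In single mice Cpxm1 was found in 40.0, 7.69 and 42.9% of WT members and 56.1, 69.0 and 27.6% of Aromhum members, against 16.6, 8.75 and 12.4% and 24.6, 30.8 and 12.1% of the others. The value of WT 2 is 1 of 13 members, and without thinning Cpxm1 was found in 69.2% of WT 2 members and 44.4% of its others. Thinned members held 0 UMIs of Il33 in WT 2 and 3 and 0 of Cyp7b1 in WT 1, WT 3 and Aromhum 3, and with 13 and 7 members in WT 2 and 3 this depth cannot show absence. Without thinning Il33 was found in 3 of 13 and 5 of 7 of these members. Without thinning, Cpxm1 was found in 95.6% of members, 63.4% of the others and 2.37% of endothelial barcodes, at median depths of 10619, 9499 and 7594 UMIs.

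**Figure D4:**
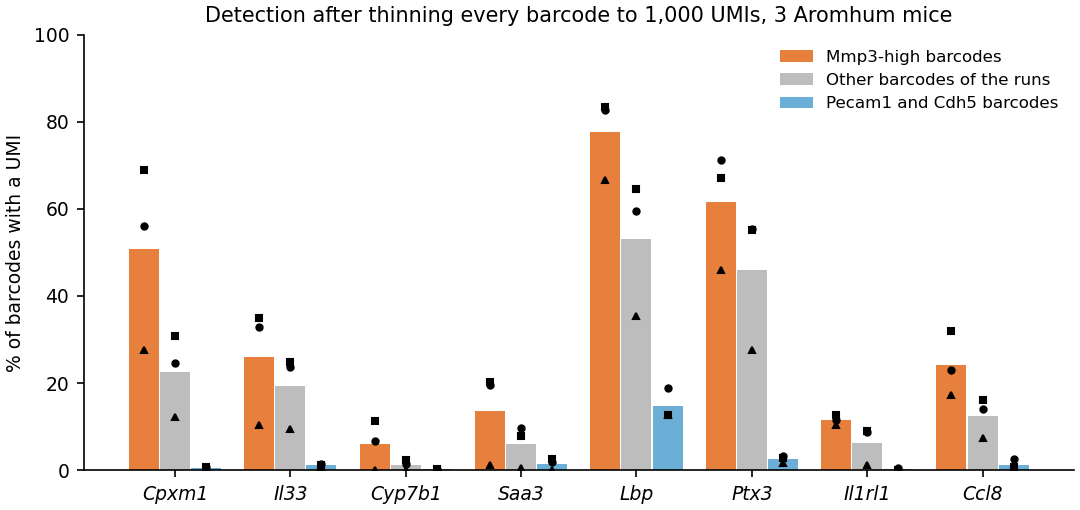
Percent of barcodes with a UMI of 8 genes after thinning to 1000 UMIs, in Mmp3-high fibroblasts, the other barcodes of the runs and endothelial barcodes of the Aromhum mice. Bars are means of the 3 mice and circles, squares and triangles are Aromhum 1, 2 and 3. Saa3 was found in 19.5 and 20.3% of members of Aromhum 1 and 2 and in 1.15% of those of Aromhum 3.

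The members also varied among themselves. In Aromhum 1 and 2, where 479 and 933 members could be thinned to 5000 UMIs, the ratio of variance to mean was computed for 1207 genes, for which counting alone gives 1. Ctla2a, a cysteine protease inhibitor gene with a close paralog, was first in both mice at 109 and 121. Saa3 was second, at 52.6 and 116. It had a UMI in 31.7% and 32.1% of the thinned members, and the 51 and 99 members with the most held 88.8% and 89.6% of its UMIs before thinning. Ren1 came next, with a UMI in 28.2% and 17.4%. The collagens Col3a1, Col1a2 and Col1a1 and the chemokine genes Ccl2 and Cxcl1 followed among the first 13. The ratio is not scaled to the level of a gene and tends to be larger for abundant genes. Col3a1 had a mean of 77 and 55.8 UMIs and a UMI in 99.8% and 99.6% of the thinned members. Its rank therefore does not show that members differed more in Col3a1, relative to its level, than in genes ranked lower. Ctla2a, named here after its values were seen, stood at 11043, 12.1 and 99.4 CPM in WT members and 9366, 13329 and 1339 CPM in Aromhum members, so that WT 1 was at the level of Aromhum 1 and 2.

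Within the members, the genotypes were compared by edgeR's quasi-likelihood test on the summed counts of WT 1, WT 2 and the 3 Aromhum mice, since WT 3 held fewer than 10 members. Of 7905 genes tested, 0 were higher (0%) and 0 lower (0%) in Aromhum at an adjusted p under 0.05, against 457 and 356 at an unadjusted p under 0.05. DESeq2 called 27 higher and 15 lower. Without Aromhum 3 edgeR called 165 higher and 95 lower. The 3 Aromhum mice stood above WT 1 and WT 2 for 1546 genes (19.6%) and below for 886 (11.2%). WT 3 does not enter these shares, nor the counts without overlap given for lists below. For single genes, overlap is stated over all 6 mice. The values that follow are levels and differences of genes that did not pass the adjusted threshold.

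The 12 genes named next had the smallest p among genes at 20 CPM or more without overlap in the 5 mice fitted. Their lack of overlap in those mice was thus set by the choice, and only the place of WT 3 was free. The smallest p was that of Tnc, which encodes tenascin C, a matrix glycoprotein of injured and remodeling tissue. It stood at 5.32, 24.1 and 0 CPM in WT members and 163, 123 and 139.6 CPM in Aromhum members, with no overlap and a log2 difference of 3.93 (SE 0.49, edgeR adjusted p = 0.264). The WT members held 5, 4 and 0 UMIs of Tnc. Akap12, a kinase anchoring protein gene, stood at 156, 169 and 109 CPM in WT and 42.9, 35.5 and 62.1 CPM in Aromhum, each WT mouse above each Aromhum mouse, with a log2 difference of -1.85 (SE 0.26, edgeR adjusted p = 0.264). Plod2, a collagen lysyl hydroxylase gene, stood at 36.2, 36.2 and 139 CPM in WT and 214, 248 and 136 CPM in Aromhum, and WT 3, which was not in the fit, lay within the Aromhum range. Its log2 difference was 2.44 (SE 0.38, edgeR adjusted p = 0.288). Cyp4b1 stood at 0, 6.03 and 0 CPM and 39.9, 33.5 and 32.2 CPM. Socs2, a feedback inhibitor of cytokine and growth hormone signaling, stood at 7.45, 18.1 and 19.9 CPM and 40.2, 42.1 and 39.5 CPM, again with no overlap. Mup5, of a family of near-identical genes, and C1qtnf6, Gdap10, Nmb, Tcim, Sap30 and Tmem119 completed the 12 smallest p among the genes so chosen. The adjusted p from edgeR of these 12 lay between 0.264 and 0.288.

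Of 30 fibrillar collagen and matrix genes, 18 had all Aromhum mice above WT 1 and WT 2 and 1 the reverse. Of all genes, 19.6% and 11.2% did so. An unadjusted p under 0.05 was found for 16 of the 30, beside 813 of all 7905 genes tested. Col3a1, 1 of the 18, stood at 17675.5 CPM in WT 3 members and 16704, 12583 and 14259 CPM in Aromhum members. The list's median log2 difference was 0.93, against 0.02 over all genes tested. Col1a1, of type I collagen, stood at 4333, 2646 and 6895 CPM in WT members and 11046, 8912 and 6881 CPM in Aromhum members, with WT 3 inside the Aromhum range and a log2 difference of 1.33 (SE 0.38, edgeR adjusted p = 0.392). Cthrc1, a secreted protein gene of matrix-making fibroblasts, stood at 24.5, 6.03 and 0 CPM and 399.5, 313 and 51.9 CPM without overlap, and Postn (periostin) at 221, 0 and 139 CPM and 733, 719 and 464 CPM, likewise without overlap. Postn was lower in members than in the others of all 5 mice compared. In the others Cthrc1 stood at 17.8, 15.9 and 11.3 CPM in WT and 508, 343 and 39.5 CPM in Aromhum. Markers of tenocytes, which also make matrix, summed to 499, 241 and 9.94 CPM in WT members and 623, 421 and 1338 CPM in Aromhum members, with WT 1 above Aromhum 2, and to 859 to 1869 CPM in the others. Smooth muscle and pericyte markers summed to 12.1 to 49.7 CPM in WT members and 25.2 to 102 CPM in Aromhum members. Their part in the matrix values was not tested. In the others, which had more cells, 13 of the same 30 genes passed the adjusted threshold as higher in Aromhum, where 274 (2.07%) of 13267 genes did so and 289 (2.18%) were lower. These totals were 1602 and 1377 without Aromhum 3, and at most 9 and 33 without any other single mouse.

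Acute phase genes had a list median of 2.06, with 4 of 10 tested genes higher in Aromhum without overlap and 0 lower, beside 19.6% and 11.2% of all genes. The list was not shifted in members alone. In the others its median was 2.98 over 12 tested genes. Of these 12, 1 passed the adjusted threshold as higher, beside 2.07% of all genes. Saa3 had 0 UMIs in the 1206750 UMIs of all WT members and stood at 1166, 2460.5 and 30.7 CPM in Aromhum 1, 2 and 3. Against a floor of 3 UMIs over the WT members (2.49 CPM), its mean in Aromhum was at least 490.4-fold higher and its lowest mouse at least 12.4-fold higher (edgeR adjusted p = 0.377). Aromhum 1 and 2 had the highest levels, and in them 41.3% and 35.4% of members had a Saa3 UMI, against 5.75% in Aromhum 3. In the others Saa3 was at 2.35, 3.01 and 1.77 CPM in WT and 645, 610.2 and 15.3 CPM in Aromhum. In Aromhum 3, 22 of the 42 Saa3 UMIs were in 1 member, without which the level was 14.8 CPM. Saa2, also at 0 in WT members, was at least 14.5-fold higher on the mean and at least 2.65-fold in its lowest mouse, Aromhum 3, where 5 of 9 UMIs were in 1 member and the level without it, 2.96 CPM, was near the floor. Saa3 and Saa2 passed the filter on low counts through Aromhum mice, so that the direction of both was fixed. Hp (haptoglobin) stood at 6.38, 0 and 0 CPM in WT and 185, 108 and 1.46 CPM in Aromhum and did not separate Aromhum 3 from WT 1. Serpina3n stood at 331, 368 and 566 CPM and 1116, 1255 and 589 CPM, with every Aromhum mouse above the WT mice and a log2 difference of 1.51 (SE 0.38, edgeR adjusted p = 0.374). Ptx3 overlapped, at 2092, 1802 and 2921 CPM and 2951, 2679 and 1338 CPM.

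**Figure D5:**
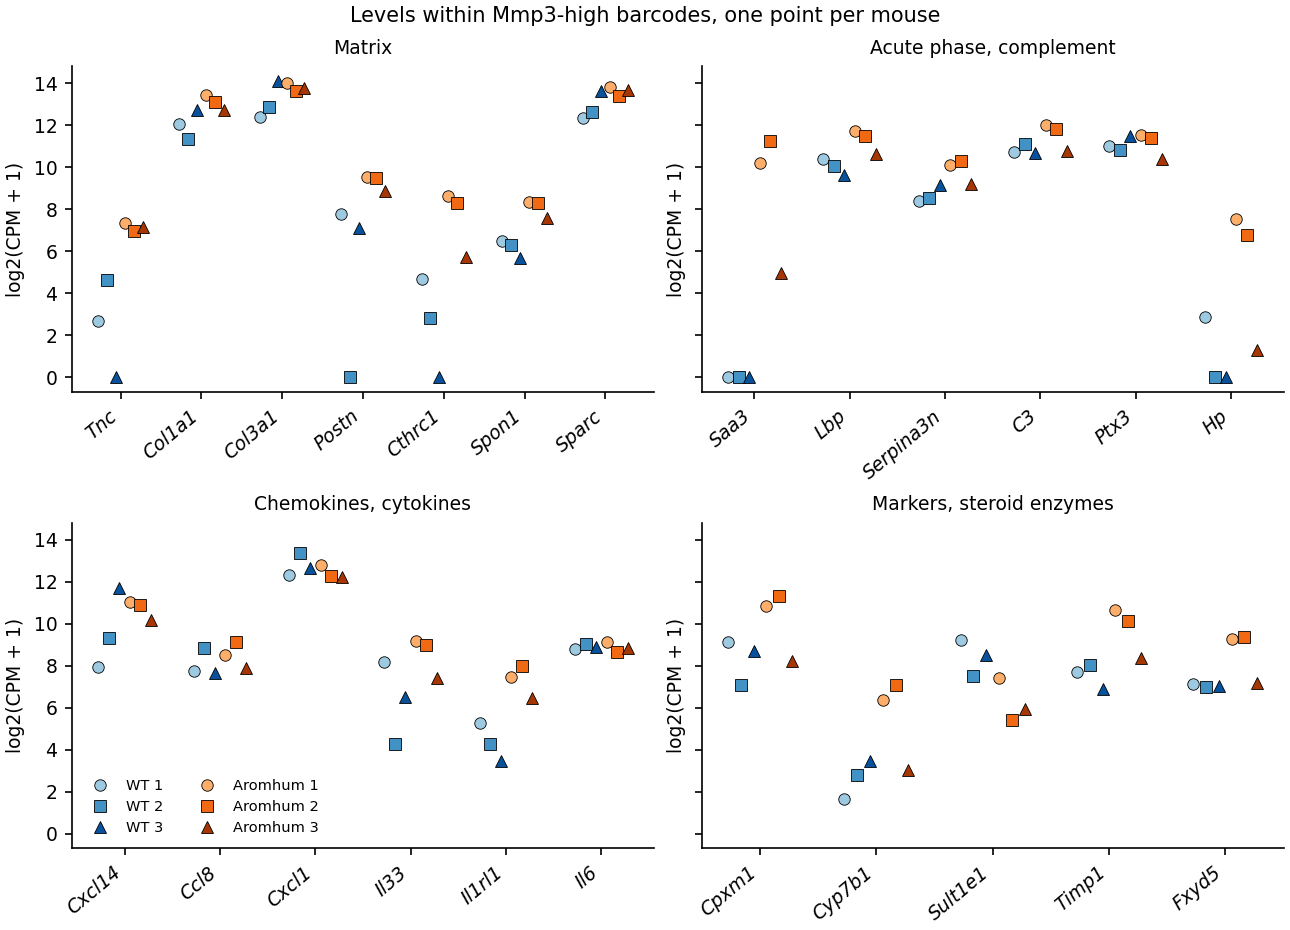
Levels of 24 genes within Mmp3-high fibroblasts as log2 of CPM plus 1, with a point for each of the 3 WT and 3 Aromhum mice, in panels of matrix genes, acute phase and complement genes, chemokines and cytokines, and markers and steroid enzymes. Tnc, Cthrc1 and Saa3 have all Aromhum mice above all WT mice, while Il6, Ccl8 and Cxcl1 overlap. For Ccl8 the overlap rests on WT 2, where 1 member held 58 of 75 UMIs.

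Estrogen response genes had a list median of 2.57, with 7 of 10 without overlap, all higher in Aromhum, beside 19.6% of all genes. In the others the list median was 1.97, and 4 of 10 genes passed the adjusted threshold as higher, beside 2.07% of all genes. The progesterone receptor gene Pgr stood at 1.06, 0 and 0 CPM in WT members and 11.1, 27.3 and 1.46 CPM in Aromhum members, and Greb1 at 5.32, 0 and 0 CPM and 22.5, 37.2 and 8.77 CPM. Neither overlapped, but WT 1 members held 1 UMI of Pgr and 5 of Greb1, those of WT 2 and 3 held 0, and those of Aromhum 3 held 2 of Pgr, so that the separation of Aromhum 3 for Pgr rests on 1 UMI. With so few UMIs in WT, both genes passed the filter on low counts through Aromhum mice, so that their direction was in part fixed. Both count among the 7 of 10 genes of the list and among the 5 of 7 markers below. Markers of the Esr1-high fibroblasts of the 10th block moved with this list, with which they share Esr1, Greb1, Nppc, Pgr and Pnoc. The 8 markers summed to 222, 66.3 and 49.7 CPM in WT members and 493, 853 and 109 CPM in Aromhum members, with WT 1 above Aromhum 3, and 5 of the 7 tested were higher in Aromhum without overlap at a median of 3.65. The part of RNA from those cells was not tested. Esr1 itself overlapped, at 13.8, 18.1 and 19.9 CPM and 21, 27.3 and 13.2 CPM. Of 15 genes that the study had named in these samples, 12 were higher in Aromhum without overlap with WT 1 and WT 2. WT 3 was in or above the Aromhum range for Col1a1, Col3a1 and Cxcl14 of these 12. Of the 15, 12 had an unadjusted p under 0.05, beside 813 of all 7905 genes tested. Their median was 1.84 over the 15, which is no independent evidence of direction. Timp1, the tissue inhibitor of metalloproteases and 1 of the 15, stood at 206, 265 and 119 CPM in WT members. In Aromhum members it stood at 1589, 1135 and 324 CPM. Among 20 matrix proteases beside Mmp3, 6 were higher without overlap and 0 lower, beside 19.6% and 11.2% of all genes, at a median of 0.45.

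Interferon-stimulated genes had a negative list median of -0.59, with 0 of 15 higher and 6 lower without overlap, beside 11.2% of all genes lower. Iigp1, an interferon-inducible GTPase, stood at 198, 223 and 119 CPM in WT members and 73.7, 32.2 and 67.3 CPM in Aromhum members, with a log2 difference of -1.89 (SE 0.35, edgeR adjusted p = 0.289). Of 20 immediate early and dissociation genes, 3 were higher and 8 lower without overlap, beside 19.6% and 11.2% of all genes. These genes respond to enzymatic digestion of tissue, and their part in other differences was not tested. Chemokine genes had a median of 0.19 with 2 of 13 higher without overlap, NF-kB pathway genes -0.17 with 1 of 22 higher and 3 lower, and complement genes other than C4b 0.29 with 3 of 17 higher and 1 lower. The shares higher in these 3 lists lay below the 19.6% of all genes. Ccl8 stood at 214, 452 and 199 CPM in WT and 365, 551 and 234 CPM in Aromhum, with overlap. The overlap rests on WT 2, where 58 of the 75 UMIs were in 1 member, without which the level was 114 CPM. Cxcl14 stood at 246, 633 and 3368 CPM and 2062, 1869 and 1143 CPM, where WT 3 was the highest of all 6 mice. Sult1e1, lower in Aromhum members as given above, had a log2 difference of -2.18 (SE 0.66, edgeR adjusted p = 0.392).

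Whether the genotype difference was of another size in members than in the others was tested as an interaction in edgeR over 13184 genes. It was more positive in members for 20 genes (0.152%) and more negative for 6 (0.0455%), and these counts were 0 and 0 with limma voom, where 277 and 908 genes had an unadjusted p under 0.05. They were 13 and 2 without WT 2 and 68 and 41 without Aromhum 3. With the epidermal-type barcodes left out of the others, which they make up to 16.9% in WT 1 and 2 and from 17.3% to 45.1% in Aromhum, the counts were 13 and 0 of 12910 genes, and 12 of the 26 genes were still called. Ccl8, which encodes a monocyte chemoattractant, stood at 66.9, 77.6 and 43.9 CPM in the others of WT mice. In those of Aromhum mice it stood at 229, 298 and 113 CPM, without overlap, whereas the members overlapped through WT 2. There 58 of the 75 Ccl8 UMIs were in 1 member, as given above. Its interaction was -1.11 (SE 0.19, edgeR adjusted p = 0.00849), and -0.95 without the epidermal-type barcodes (edgeR adjusted p = 0.0715). The decoy receptor gene Il1r2 was highest in WT 1 members, and its interaction was -1.24 (SE 0.26, edgeR adjusted p = 0.0429), but -0.0064 without those barcodes (edgeR adjusted p = 1). Sfrp4, a secreted Wnt antagonist gene, stood at 458, 163 and 69.5 CPM in WT members and 1495, 1499 and 1176 CPM in Aromhum members, against 713, 631 and 422 and 1203, 1188 and 766 CPM in the others, with an interaction of 1.50 (SE 0.22, edgeR adjusted p = 0.00155) and of 1.71 without those barcodes (edgeR adjusted p = 0.00761). Ctgf, a matrix-associated growth factor gene, was lower in members than in the others of every mouse, and its interaction was 1.51 (SE 0.18, edgeR adjusted p = 9.83e-05) and 1.24 without those barcodes (edgeR adjusted p = 0.0379). C4b, which chose the members, was among the 6 negative genes and is given as a description only.

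Markers of red blood cells moved with this test. The 4 markers summed to 27.6, 24.1 and 0 CPM in WT members and 730, 17.1 and 3.65 CPM in Aromhum members. In the others they summed to 757, 159 and 199 CPM in WT and 71.6, 7.33 and 9.67 CPM in Aromhum. In Aromhum 1 members 1 barcode held 884 of the 1408 UMIs of Hba-a1 and 1607 of the 3028 of Hbb-bs. Endothelial markers moved with it as well, at 99.0, 153 and 166 CPM in the others of WT mice and 71.4 to 77.5 CPM in those of Aromhum mice, where 4 of 6 such genes passed the adjusted threshold as lower in Aromhum, beside 2.18% of all genes. Calls of lower genes in the others came to between 0 and 33 in all without any 1 mouse but Aromhum 3. The part of red cell and endothelial RNA in the other interaction values was not tested.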

How the data were processed

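LAM cell suspensions of 3 WT and 3 Aromhum mice were sequenced with 10x Genomics 3′ single-cell chemistry, which does not measure transcript length. The authors aligned the reads with Cell Ranger 3.0.2 to the mouse genome (mm10) with the human CYP19A1 gene added, and deposited a count table of UMIs for 16494 genes and 63647 barcodes. How genes were reduced to these rows, and how barcodes were ordered, is not given in the sources used here. The depth of each library bounds the precision of every value, and intervals cover counting error only.

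Groups came from the sample labels. Each replicate was 1 mouse. Members and gene lists were chosen with earlier results of these data known. Shares were compared by exact permutation tests. Counts were summed per mouse over members (mice with at least 10 members) and over the others, filtered on low counts and tested with edgeR 4.0.16 (quasi-likelihood, TMM, Benjamini-Hochberg adjustment) in R 4.3.3. Alternatives used DESeq2 1.42.0, limma 3.58.1, other limits, thinning and leaving out mice. Named for genotype were the 12 of smallest p among genes at 20 CPM or more without overlap in the 5 mice fitted. Named for ratios were the 15 highest and 10 lowest medians at 50 CPM or more with the same sign in all 5 mice. Genes that the rule used were left out of both. Also named were up to 6 interaction calls in each direction, 5 markers, 15 genes named by the study and members of the lists. Doublets were marked with Scrublet in scanpy 1.11.5 and kept. On simulated counts for the members, the edgeR fit recovered 9.41% of genes changed 2-fold and 87.0% of those changed 4-fold. The simulation gave each gene the spread typical of its level and held no outlying mouse. These shares therefore do not say how many changed genes the fit missed in the real data. The expression of adipocyte markers and several other listed genes (Cfd, Orm1, Orm2, Ccl20, Cxcl11, Mmp24, Esr2, Dkk1, Krt5) was not analysed here.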

Additional observations from a re-analysis of the deposited data

Results flagged for a closer look

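Each result here was a genotype difference (Aromhum minus WT, log2) that differed between Mmp3-high fibroblasts and the other barcodes of the runs by the interaction test in edgeR. The values are the difference in members minus that in the others.

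Of the 11 genes, the hemoglobin genes had the highest values, at 8.08 for Hba-a1, 6.79 for Hbb-bs and 6.80 for Hbb-bt, and 1 barcode of Aromhum 1 held 62.8% of that mouse's member UMIs of Hba-a1. Without that barcode the level of Hba-a1 in Aromhum 1 members was 82.1 CPM in place of 220.4. Fabp4, a fatty acid binding protein gene of fat and capillary cells, had 2.19. It stood at 104, 54.2 and 69.5 CPM in WT members and 174, 148 and 202 CPM in Aromhum members, against 256, 489.6 and 499 and 117, 131 and 140.2 CPM in the others, where endothelial markers were also lower in Aromhum. Its UMIs were concentrated in members, with 90.6% and 88.4% of them in the 51 and 99 highest members of Aromhum 1 and 2. Ctgf had 1.51 and Sfrp4 1.50.

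More negative in members were Aldh1a3 at -1.73, Il1r2 at -1.24, Ccl8 at -1.11, Irgm1 at -1.07 and Scara5 at -0.99. With the epidermal-type barcodes left out of the others, an alternative chosen after seeing the data, none of these 5 passed the threshold, at -0.88, -0.0064, -0.95, -1.48 and -0.57 (edgeR adjusted p of 0.0679 to 1), while the 6 positive genes still did (edgeR adjusted p of 0.000145 to 0.0379). Scara5, a ferritin receptor gene, stood at 182, 145 and 129 CPM in WT members and 84.9, 91.6 and 82.6 CPM in Aromhum members, while the others overlapped. Over the alternatives the edgeR, DESeq2 and limma adjusted p for Ccl8 ranged from 1.36e-07 to 0.151 and that for Hba-a1 from 6.35e-114 to 0.325. None of these 11 differences changed sign in an alternative.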

How the results depend on the processing

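The mean share of members was higher in Aromhum under every alternative run, with differences without 1 mouse of 8.55 to 17.7 percentage points of the runs and 2.48 to 5.98 of all barcodes. The difference in the runs was 3.80 points with barcodes thinned to 1000 UMIs and 21.3 with no limit on Dmkn, Sbsn and Krtdap. Aromhum 3 fell below WT 1 under the study's limits (at most 2500 genes and 5% mitochondrial UMIs) and with thinning to 5000 UMIs, the latter chosen after seeing the data (exact permutation p = 0.2 in each), and for the share of all barcodes also with a mitochondrial limit of 5%.

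Within members, where edgeR called 0 genes higher and 0 lower, DESeq2 called 27 and 15, no filter on low counts 73 and 22, and mice with at least 3 members, which adds WT 3, 2 and 0 (Tnc, adjusted p = 0.0434, and Mup5, 0.0463). Without 1 mouse the counts were 0 to 165 higher and 0 to 95 lower, with the highest of each without Aromhum 3. In the others, edgeR called 274 and 289, DESeq2 843 and 804, no filter 173 and 146, the study's limits 0 and 4, thinning to 1000 UMIs 78 and 86, and leaving out 1 mouse 0 to 1602 and 0 to 1377, again highest without Aromhum 3. For the interaction, more positive and more negative genes were 5 and 1 with DESeq2, 0 and 0 with limma voom, 88 and 32 with no filter, 13 and 0 without the epidermal-type barcodes among the others, and 13 to 68 and 2 to 41 without 1 mouse. A fit with 4 or 5 mice leaves few degrees of freedom, and where an arm kept 1 mouse that mouse was assumed to vary like the rest.

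Same-numbered WT and Aromhum mice correlated in their deviations from the group means at 0.233, -0.166 and 0.220, so that the numbers were not taken as pairs. With the replicate block the members gave 54 higher and 19 lower genes and the others 297 and 328. The shares gave an exact sign-flip p of 0.25, the smallest that 3 pairs allow.

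Of single genes, the log2 difference of Ccl8 in members ranged without 1 mouse from -0.11 (without Aromhum 2) to 0.77, and it was -0.04 without WT 1. Il33 in members reversed to -0.24 under the study's limits. Under those limits WT 2 kept 0 members and WT 3 kept 1, so that WT 1 was the only WT mouse in the fit. The cause was not tested. Of 29 median ratios to the others, 25 moved by less than 1 SD between mice without the epidermal-type barcodes, an SD that is wide, since they include Igfbp5 (-2.20 to -0.66), Wnt2 (-1.62 to -0.26) and Il33 (0.42 to 1.35). The other 4 moved by more, namely Efhd1 to -0.76, Il1r2 to 2.24, Ntn4 to -0.93 and Saa1 to 2.91. None changed sign. Leaving WT 3 out of the member fit was not run, as it was not in it. The 110 WT members limit what depth can show, with 165935 UMIs in WT 2 and 100648 in WT 3.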
